A study of Mus musculus with 16 samples.

Results

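Maxillary first molars were compared with lower incisors in the mouse embryo at E14.5, the cap stage, with 4 samples of each tooth. These were 8 of the 16 samples of the series, chosen by the tooth named in their labels. The other 8 samples, mandibular first molars, were not part of the test and served to place each difference. All embryos were wild type on the C57Bl6 background, untreated, and each sample was the total RNA of a pool of 4 microdissected tooth germs on 1 Affymetrix Mouse Gene ST array. The sources used here do not say how many embryos gave the germs of a pool, so p-values reflect only the variation among these pools. A maxillary molar differs from a lower incisor in tooth class and in jaw, and these are confounded in the pair. A gene at which the mandibular molars lay with the maxillary molars parted the lower incisors from both molars. A gene at which they lay with the incisors parted the maxillary molars from both lower jaw teeth. The series holds no upper incisors, so a difference of tooth class or of jaw cannot be told from a trait of that tooth alone.

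Teeth form where oral epithelium meets mesenchyme of neural crest origin. Along each jaw this mesenchyme carries different homeobox and other transcription factors, with one set near the midline, where incisors form, and another in the proximal part, where molars form. Genes of the *Dlx* and *Hand* families set lower jaw apart from upper jaw. At the cap stage a signalling centre of the epithelium, the enamel knot, secretes Shh and members of the FGF, BMP and Wnt families and directs the folding of the crown, which in a molar gives several cusps.

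The values were log2 signals after RMA, and a log2 difference of 1 is a fold change of 2. Of 35556 probe sets 29075 lay above 5 in at least 1 of the 8 samples and were tested, among them 1 probe set for each of 17237 named genes. The threshold was an adjusted p of 0.1 (limma, Benjamini-Hochberg) together with a fold change of 2, or of 1.2 in gene lists. All log2 fold changes are maxillary molars minus lower incisors. At fold 2, 314 probe sets (1.08% of those tested) were higher in maxillary molars and 216 (0.743%) in lower incisors. Of these, 190 and 157 carried 1 gene symbol, and 168 and 150 were the probe sets that stood for named genes. Probe sets without a single symbol were kept in all probe set counts, and what they detect was not tested. Among the named genes at fold 1.2, 2821 (16.4%) were higher in maxillary molars and 2126 (12.3%) in incisors. These shares are the background for every list count below. The first principal component of the 8 samples held 54.0% of the variance and parted the groups, with lower incisor 4 nearest to the molars at 11.2 against 28.4 to 42.4 for the other incisors. This sample also stood apart on the second component, at -40.5. Without it 354 and 319 probe sets passed at fold 2. The study set aside 1 incisor array for high background without naming it, and whether it was this one is not given.

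A further difference runs through these samples. Mandibular molars 5 to 8 resembled the maxillary molars, with a median correlation of 0.992 across probe sets, and were less like mandibular molars 1 to 4, at 0.984. Mandibular molars 1 to 4 and lower incisors correlated at 0.985, and lower incisors and maxillary molars at 0.976. Between mandibular molars 5 to 8 and 1 to 4, which are of 1 tooth type and share no sample with the main comparison, 95 probe sets (0.328% of 28936) were higher in samples 5 to 8 and 42 (0.145%) in samples 1 to 4 at fold 2. Without mandibular molar 4 they were 322 in all, against 137. Of the probe sets called higher in maxillary molars and also tested here, 277 of 311 (89.1%) were higher in mandibular molars 5 to 8, against 48.7% of all those tested. Of those called higher in incisors, 181 of 212 (85.4%) were higher in mandibular molars 1 to 4, against 51.3% of all. The labels name no batch, and whether the numbers stand for days of dissection, hybridizations or embryos is not given in the sources used here. For the lists and for many of the genes a number-adjusted value is therefore given too, which is the difference between maxillary molars and incisors less that between mandibular molars 5 to 8 and 1 to 4. It assumes that maxillary molars share with mandibular molars 5 to 8, and incisors with mandibular molars 1 to 4, what sets these quartets apart. It also takes that difference to be equal in all teeth. Maxillary molars and incisors are both numbered 1 to 4, so the labels do not give this match, and neither assumption could be tested. In this fit 105 probe sets (0.361%) were higher in maxillary molars and 101 (0.347%) in incisors at fold 2, and 375 (2.18%) and 386 (2.24%) of the named genes at fold 1.2. Of the 314 and 216 probe sets above, 88 and 89 still passed.

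Each of the 530 probe sets was placed by the means of the mandibular molars on a scale from the incisor mean (0) to the maxillary mean (1). Both mandibular quartets lay above 0.75, at the maxillary level, for 34 of those higher in maxillary molars and 50 of those higher in incisors. Both lay under 0.25, at the incisor level, for 12 and 5. The quartets were parted, one under 0.25 and the other above 0.75, for 99 and 43. The other 169 and 118 lay between. The scale had no outer bound, so a level also takes in mandibular means beyond that of the maxillary molars (as for *Alx1*) or of the incisors (as for *Dpt*). A place therefore does not mean that the levels were equal. The probe sets at the maxillary level were protein-coding genes in 92.9% of cases, with no small RNA among 84. Those parted by number were protein-coding genes in 19.0%, small RNA genes in 8.45% and without a single gene symbol in 71.8%, while all tested probe sets were protein coding in 61.1%, small RNA in 0.987% and without a single symbol in 35.1%. The places and the number-adjusted values rest on the same mandibular means, so that a probe set parted by number has a small adjusted value by construction.

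**Figure D1:**
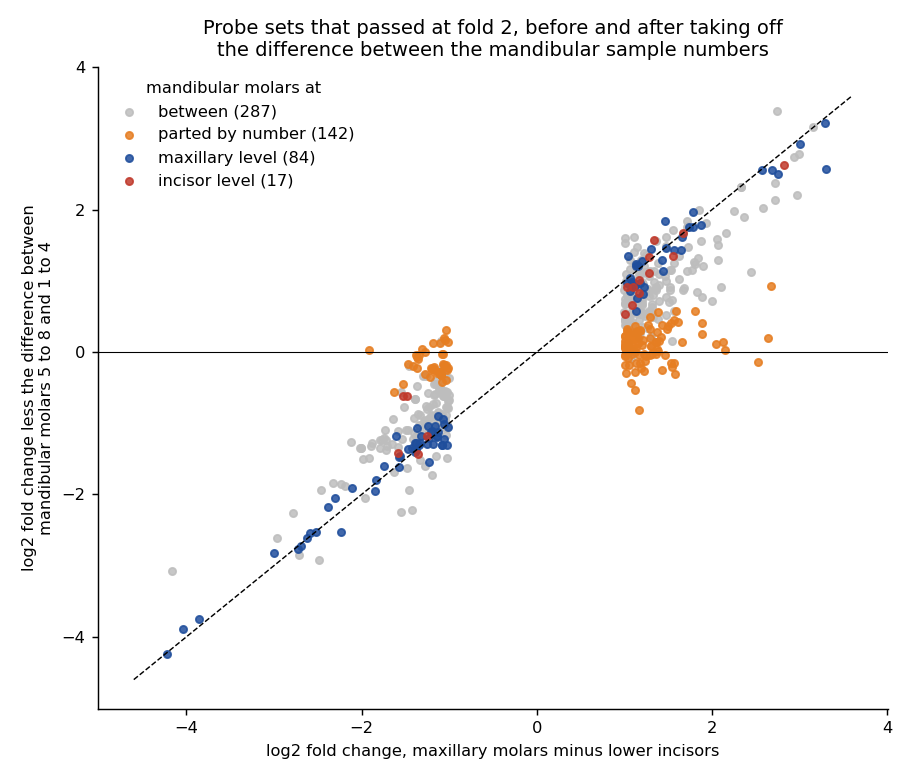
Each point is 1 of the 530 probe sets that passed at fold 2, with the log2 fold change of maxillary molars minus lower incisors on the x axis and the number-adjusted log2 fold change on the y axis. The dashed line marks equal values, and colours give the place of the mandibular molars. Since the colours and the y axis use the same mandibular means, the 142 probe sets parted by number are drawn towards 0 on the y axis by construction. The nearness of the 84 at the maxillary level to the dashed line is partly so too. The plot shows how many there are of each.

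Of the transcription factors of the proximal jaw, all 13 tested were higher in maxillary molars, with a median log2 fold change of 1.74, against -0.02 over all named genes. After number adjustment 11 of the 13 passed, with a median of 1.76. The study had reported members such as *Barx1*, *Six2*, *Lhx6*, *Dlx1* and *Shox2* as higher in mandibular molars than in incisors of this series. The list was chosen with this known, so its count is not independent support. *Barx1*, a homeobox gene of the mesenchyme of the molar field, had log2 signals of 8.01, 8.91, 7.99 and 8.08 in the 4 lower incisors and of 11.70, 11.44, 11.53 and 11.49 in the 4 maxillary molars. The mandibular molars ran from 11.10 to 11.44 with a median of 11.31, so all 12 molar samples lay above all incisors. The log2 fold change of *Barx1* was 3.30 (standard error, SE, 0.20, adjusted p = 4.23e-05), and 3.21 after number adjustment. *Lhx6*, a LIM homeobox gene of the oral mesenchyme, had 7.65, 8.10, 7.70 and 7.96 in incisors and 10.68, 10.53, 10.53 and 10.67 in maxillary molars. Its log2 fold change was 2.75 (SE 0.11, adjusted p = 6.18e-06), or 2.50 after number adjustment, with 9.72 to 10.38 in mandibular molars. Its relative *Lhx8* changed less, by 0.65 (SE 0.07, adjusted p = 0.000633), with mandibular molars between the groups at a median of 10.28.

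*Six2*, a homeobox gene of undifferentiated mesenchyme, rose by 2.94 (SE 0.24, adjusted p = 0.000193), from 8.65, 8.08, 7.88 and 9.13 in incisors to 11.46, 11.26, 11.44 and 11.34 in maxillary molars. The mandibular molars, at 10.19 to 10.83, lay above every incisor and below every maxillary molar. The number-adjusted value of *Six2* was 2.74, and its difference between maxillary molars and mandibular molars 5 to 8 was 0.71 (adjusted p = 0.025). *Sim2*, which encodes a bHLH-PAS factor, had a log2 fold change of 2.74 and *Tfap2b*, which encodes an AP-2 factor of neural crest, one of 2.72, and their number-adjusted values were 3.38 and 2.13. *Sim2* spread widely in molars, from 8.29 to 9.56 in maxillary and from 7.30 to 9.46 in mandibular samples, yet every molar was above the highest incisor at 6.34. *Dlx1* and *Dlx2*, neighbouring homeobox genes of the proximal and the upper jaw, had log2 fold changes of 1.78 and 1.07. *Dlx1* lay at 9.82 to 10.02 in mandibular molars, close to the 10.30 to 10.41 of maxillary molars, and kept a number-adjusted value of 1.76. *Dlx2* had 10.20 to 11.07 in mandibular molars and a number-adjusted value of 0.67 (adjusted p = 0.25), which did not pass.

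*Shox2*, a homeobox gene, was at the same level in both molars, at 9.20 to 9.31 in maxillary samples and a median of 9.25 in mandibular ones, against 7.36 to 7.76 in incisors, a log2 fold change of 1.74 (SE 0.09, adjusted p = 2.11e-05). The orphan nuclear receptor genes *Nr2f1* and *Nr2f2* had log2 fold changes of 1.47 and 1.16 and were at the maxillary level in mandibular molars. *Pax9*, which the dental mesenchyme needs to go past the bud stage, was higher in maxillary molars by 0.77 (SE 0.15, adjusted p = 0.00911). It was higher still in mandibular molars, at 10.70 to 10.96 against 10.39 to 10.54 in maxillary molars and 9.25 to 10.08 in incisors. *Six4* was higher by 0.82 and did not pass after number adjustment (0.52, adjusted p = 0.30).

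**Figure D2:**
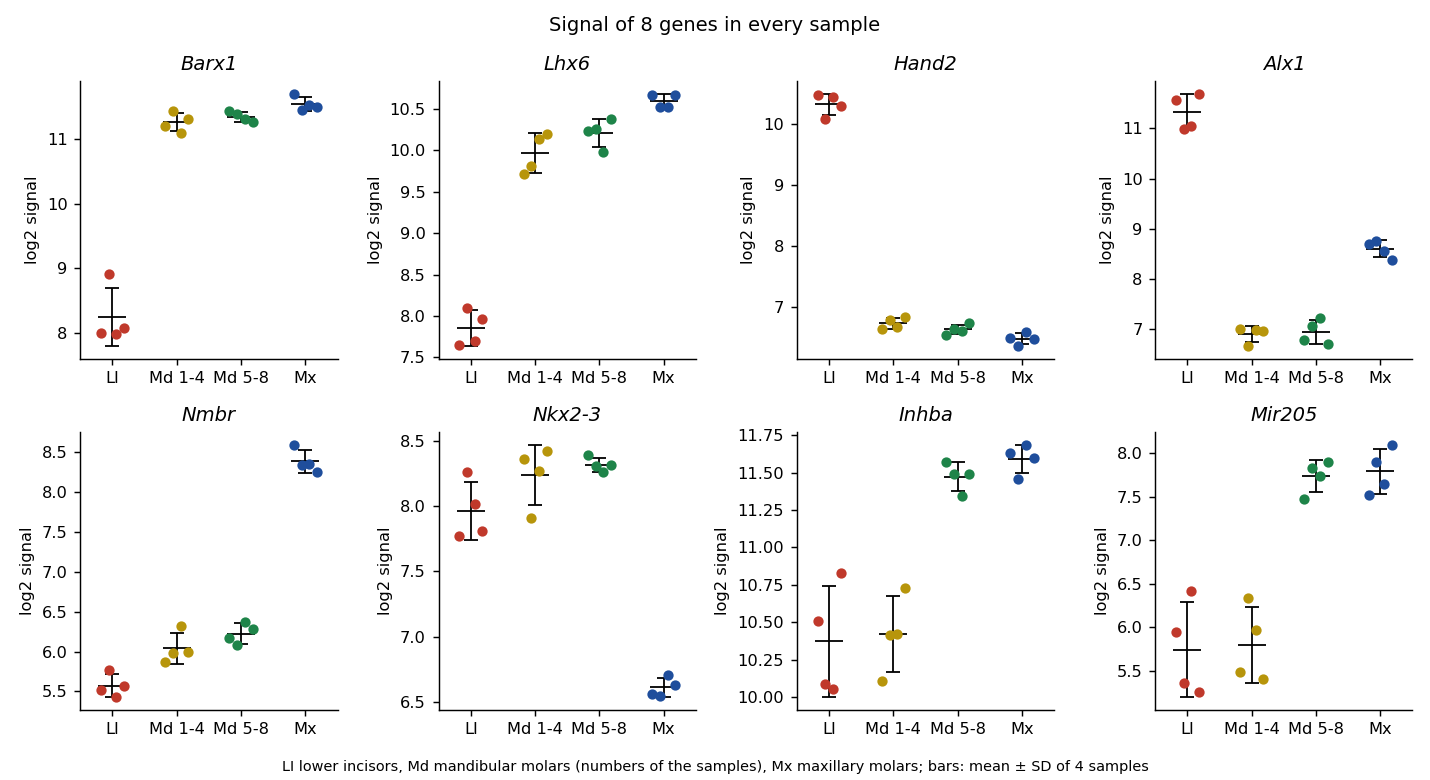
Log2 signals of 8 genes in each of the 16 samples, with lower incisors, mandibular molars by sample number and maxillary molars along the x axis, and black bars for the mean ± SD of 4 samples. *Barx1*, *Lhx6* and *Hand2* part incisors from all molars, *Nmbr* and *Nkx2-3* part maxillary molars from the rest, *Alx1* gives 3 levels, and *Inhba* and *Mir205* part the mandibular molars by number.

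The genes of the distal jaw went the other way, with 6 of 11 higher in lower incisors at fold 2 and also after number adjustment. The study had reported *Hand2*, *Alx1*, *Pax3*, *Isl1* and *Hand1* as higher in incisors than in mandibular molars of this series. This list too was chosen with that known, so its count is not independent support. *Hand2*, a bHLH factor gene of the distal mandibular arch, had 10.47, 10.09, 10.44 and 10.30 in incisors and 6.49, 6.36, 6.59 and 6.47 in maxillary molars (log2 fold change -3.85, SE 0.09, adjusted p = 4.26e-07). All mandibular molars were at 6.54 to 6.83, and the number-adjusted value was -3.75. *Hand1*, its relative, was at 7.11 to 8.06 in incisors and 6.16 to 6.38 in maxillary molars, a log2 fold change of -1.25. Both genes stand among the lower jaw genes too, yet lower molars and upper molars shared the low level.

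*Pax3*, a paired homeobox gene of neural crest and of muscle progenitors, had 10.30, 10.29, 10.21 and 10.45 in incisors against 6.15, 6.18, 6.20 and 6.06 in maxillary molars (log2 fold change -4.17, SE 0.07, adjusted p = 2.56e-08). Mandibular molars ran from 6.10 to 7.36, and the fold change was -3.08 after number adjustment. *Isl1*, a LIM homeobox gene of the distal oral epithelium, also found in motor and sensory neurons, had 8.47, 8.48, 8.51 and 8.68 in incisors and 6.05, 6.14, 6.00 and 6.44 in maxillary molars (log2 fold change -2.38, SE 0.10, adjusted p = 8.85e-06, and -2.17 after number adjustment).

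*Alx1* and *Alx4* encode homeobox factors of the frontonasal and midline mesenchyme. *Alx1* had 11.58, 10.99, 11.05 and 11.70 in lower incisors, 8.70, 8.76, 8.55 and 8.38 in maxillary molars, and 6.66 to 7.21 with a median of 6.97 in mandibular molars. These were 3 separate levels with no overlap. The log2 fold change of *Alx1* was -2.73 (SE 0.17, adjusted p = 5.89e-05) between maxillary molars and incisors, or -2.77 after number adjustment, and maxillary molars were above mandibular molars 5 to 8 by 1.66 (adjusted p = 0.0021). *Alx4* fell by 3.00 on the log2 scale, with maxillary molars at 6.85 to 7.15 and mandibular molars from 6.75 to 8.71.

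The other members of the distal list did not follow. *Msx1* (log2 fold change 0.51) and *Prrx2* (0.39) were higher in maxillary molars, *Prrx1* (0.13, adjusted p = 0.173) and *Msx2* (-0.13, adjusted p = 0.62) did not pass, and none of these passed after number adjustment. *Bmp4*, a signal of dental mesenchyme, was higher in maxillary molars by 0.38 (adjusted p = 0.0766). But it failed in 7 of the 8 fits with 1 sample left out, with an adjusted p of up to 0.170, without lower incisor 3. Its number-adjusted value was -0.26.

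Outside these lists, the largest fall among the genes called was that of *Hpse2*, which encodes heparanase 2, from 11.55, 10.92, 11.28 and 11.52 in incisors to 7.14, 7.12, 7.03 and 7.08 in maxillary molars (log2 fold change -4.23, SE 0.13, adjusted p = 2.09e-06). The mandibular molars, at 6.22 to 6.58, were lower than the maxillary molars. The number-adjusted value was -4.24, and the difference from mandibular molars 5 to 8 was 0.69 (adjusted p = 0.0058). *Emx2*, a homeobox gene, had 7.80, 6.83, 8.51 and 8.31 in incisors and 4.87 to 5.46 in maxillary molars. Mandibular molars were at 5.25 to 5.90 except for sample 7 at 7.43. *E330013P04Rik* had the same exception, with 8.28 in mandibular molar 7, 5.48 to 6.21 in the others, 6.84 to 8.95 in incisors and 5.58 to 5.87 in maxillary molars.

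Of the genes with the largest rise, *C1qtnf3*, which encodes a secreted C1q and TNF related protein, went from 7.30, 6.63, 6.08 and 7.02 to 10.07, 9.91, 9.90 and 10.35 (log2 fold change 3.30, SE 0.24, adjusted p = 0.000115), with mandibular molars at 9.31 to 10.61 and a number-adjusted value of 2.57. *Cntn6* (3.00) and *Ncam2* (2.57), which encode neural adhesion molecules, *Adcy8* (2.69), an adenylyl cyclase gene, and *Lhx6* all had mandibular molars at the maxillary level. *Plppr5*, a phospholipid phosphatase related gene, rose by 2.45, but its mandibular molars 1 to 4 averaged 6.53 and 5 to 8 averaged 7.86, and the number-adjusted value of 1.13 did not pass (adjusted p = 0.26).

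A smaller group of genes parted maxillary molars from both lower jaw teeth. *Nmbr*, the neuromedin B receptor gene, had 8.60, 8.34, 8.36 and 8.26 in maxillary molars against 5.52, 5.77, 5.43 and 5.57 in lower incisors, and mandibular molars, at 5.86 to 6.38, lay just above the incisors. Its log2 fold change was 2.82 (SE 0.10, adjusted p = 3.77e-06), and that from mandibular molars 5 to 8 to maxillary molars was 2.17 (adjusted p = 4.4e-05). Mandibular molars 1 to 4 and incisors differed by 0.47 (adjusted p = 0.14), which did not pass. *Pla2g7*, which encodes a phospholipase A2 of platelet-activating factor, was near this pattern, at 6.57 to 7.01 in incisors and 7.07 to 7.84 in mandibular molars while maxillary molars were at 9.24 to 9.78. *Nkx2-3*, a homeobox gene, was low only in the maxillary molars, at 6.56, 6.55, 6.70 and 6.63. The incisors had 7.77, 8.26, 8.02 and 7.81, and mandibular molars 7.91 to 8.42. Its log2 fold change was -1.36 (SE 0.11, adjusted p = 0.000178). Both lower jaw teeth shared the higher level, and mandibular molars 5 to 8 were above maxillary molars by 1.71 (log2 fold change of maxillary molars -1.71, adjusted p = 8.4e-06).

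Among 6 genes of the upper jaw list 4 were higher in maxillary molars and 3 after number adjustment. Of these, *Dlx1* had been reported by the study as higher in maxillary than in mandibular molars, which was known when the list was chosen. *Pou3f3*, a POU homeobox gene of the upper jaw, had 8.02, 7.55, 8.15 and 8.14 in lower incisors and 9.27, 9.22, 9.25 and 9.25 in maxillary molars, with a mandibular median of 7.81. Its log2 fold change was 1.28 (SE 0.13, adjusted p = 0.000459) and its number-adjusted value 1.33. *Pantr1*, a long noncoding RNA gene next to *Pou3f3*, had the same order, with 5.55 to 6.27 in incisors, 5.70 to 6.11 in mandibular and 7.15 to 7.61 in maxillary molars. *Irx5* rose by 0.49 (SE 0.15, adjusted p = 0.0418) with mandibular molars at the incisor level. *Foxl2* (-0.18, adjusted p = 0.108) did not pass, nor did *Meis2* (0.22, adjusted p = 0.181), whose number-adjusted value of 0.72 did (adjusted p = 0.022).

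Of 14 genes of the lower jaw list 9 were higher in lower incisors and 2 in maxillary molars (0 without maxillary molar 1), and 6 and 0 after number adjustment. *Dlx6* had 8.79, 8.88, 7.96 and 8.80 in incisors and 7.74, 7.83, 7.52 and 7.76 in maxillary molars, while all mandibular molars, at 8.74 to 9.54, were above the maxillary ones. The log2 fold change of *Dlx6* was -0.89 (SE 0.20, adjusted p = 0.0126), and from mandibular molars 5 to 8 to maxillary molars it was -1.36 (adjusted p = 0.005). Its neighbour *Dlx5* did not pass (0.24, SE 0.21, adjusted p = 0.399), with 9.81 to 10.78 in incisors, 10.15 to 10.81 in maxillary and 9.96 to 11.12 in mandibular molars. *Gsc*, the goosecoid homeobox gene, fell by 1.15 (SE 0.12, adjusted p = 0.000594), with mandibular molars at 8.03 to 8.80 above the maxillary 7.34 to 7.58. *Tbx4* fell by 1.02 with mandibular molars in between, at 6.95 to 7.42. *Pitx1* was highest in mandibular molars, at 10.65 to 11.33 against 10.08 to 10.68 in incisors and 9.79 to 10.22 in maxillary molars, and its log2 fold change of -0.41 (adjusted p = 0.0608, or 0.147 without maxillary molar 1) was 0.01 after number adjustment. *Edn1* (-0.06, adjusted p = 0.603) did not pass, nor did *Dlx4* (-0.21, adjusted p = 0.192), whose number-adjusted value of -0.61 did (adjusted p = 0.044). *Gbx2* (0.27), *Dlx3* (0.36), *Mef2c* (-0.34) and *Barx2* (-0.33) passed at fold 1.2 with all samples, but not after number adjustment. Nor did they pass with maxillary molar 1 left out for *Gbx2* (adjusted p = 0.118) or maxillary molar 4 for the other 3 (adjusted p = 0.178, 0.121 and 0.122). Of the 8 fits with 1 sample left out, they failed in 3, 6, 4 and 3 in that order, and *Pitx1* failed in 4.

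Other genes with the mandibular molars at the incisor level were *Slc10a4*, a transporter gene (log2 fold change 1.56), and *Adamtsl3* (-1.25). *Ndst4*, a heparan sulphate sulphotransferase gene, was above 5 in the maxillary molars alone, at 6.97 in sample 1 and 5.59 to 5.83 in the others, so that no size of the difference and no place are given. *Dpt*, which encodes the matrix protein dermatopontin, had 7.40 to 9.48 in mandibular molars, 6.82 to 7.54 in incisors and 4.99 to 6.53 in maxillary molars. *Tbx18* was at 7.12 to 9.02, 6.60 to 8.84 and 5.90 to 7.01 in that order, and its log2 fold change of -1.48 had an adjusted p of 0.0421, or 0.104 without maxillary molar 1. *Idi2*, an isopentenyl diphosphate isomerase gene, had a log2 fold change of -1.58. After number adjustment *Dpt* (-0.62), *Tbx18* (-0.62) and *Idi2* (-1.42) did not pass.

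Genes of the Wnt pathway moved in both directions. Of 18 ligand genes 10 were higher in incisors and 2 in maxillary molars, with a median of -0.39, and after number adjustment 2 and 1. *Wnt5a*, a ligand of noncanonical signalling, had 11.22, 11.02, 11.44 and 11.31 in incisors and 10.15, 10.12, 10.09 and 10.32 in maxillary molars (log2 fold change -1.08, SE 0.10, adjusted p = 0.00028). The mandibular molars, at 9.31 to 10.18, were at the maxillary level, and the number-adjusted value was -1.31. *Wnt16* fell by as much, 1.08, but its mandibular molars averaged 7.61 in samples 1 to 4 and 6.95 in samples 5 to 8, and the number-adjusted value of -0.42 did not pass. *Wnt7b* (-0.70) was likewise parted by number. *Wnt2* was higher in maxillary molars by 0.74 and, after number adjustment, by 1.04 (adjusted p = 0.032).

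Of 14 genes of secreted Wnt antagonists 8 were higher in maxillary molars and 3 in incisors, and 2 each after number adjustment. *Sfrp4*, a secreted frizzled-related protein gene, had 11.60, 11.46, 11.10 and 11.88 in incisors and 7.36, 7.52, 7.22 and 7.80 in maxillary molars (log2 fold change -4.04, SE 0.18, adjusted p = 8.85e-06), with 7.05 to 7.69 in mandibular molars. Its relative *Sfrp1* went the other way, from 9.85, 10.07, 8.79 and 10.14 to 11.78, 11.87, 11.69 and 11.78 (log2 fold change 2.07, SE 0.27, adjusted p = 0.00143), and by 1.498 after number adjustment (adjusted p = 0.018). *Frzb* (1.36) had a number-adjusted value of 0.87 (adjusted p = 0.15). *Dkk1* was higher in maxillary molars by 1.104 (adjusted p = 0.00416), from 9.02 to 9.86 in incisors to 10.46 to 10.78. In the mandibular molars it averaged 9.27 in samples 1 to 4 and 10.36 in samples 5 to 8, and its number-adjusted value was 0.02.

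Of 15 ligand genes of the BMP, GDF, activin and TGF-beta families 5 were higher in incisors and 3 in maxillary molars, and 5 and 0 after number adjustment. *Bmp5* had 9.28, 8.59, 8.54 and 9.28 in incisors and 7.68, 7.49, 7.18 and 7.12 in maxillary molars (log2 fold change -1.56, SE 0.21, adjusted p = 0.00172), with mandibular molars at 7.22 to 7.56. *Gdf10* (-1.54) and *Gdf6* (-0.97) were higher in incisors with mandibular molars between. *Inhba*, the gene of an activin subunit whose loss stops lower incisors and mandibular molars but spares maxillary molars, had 10.51, 10.09, 10.05 and 10.83 in incisors and 11.63, 11.46, 11.68 and 11.59 in maxillary molars, a log2 fold change of 1.22 (SE 0.17, adjusted p = 0.00182). Mandibular molars 1 to 4 averaged 10.42, within the incisor range, and mandibular molars 5 to 8 averaged 11.47, at the maxillary level. The number-adjusted value of *Inhba* was 0.17 (adjusted p = 0.85).

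Of 11 BMP antagonists and modulators 5 were higher in maxillary molars and 2 in incisors, with 3 and 1 after number adjustment. *Bmper*, which encodes a secreted BMP-binding protein, rose by 2.16 (SE 0.11, adjusted p = 1.52e-05), from 7.17 to 7.49 in incisors to 9.34 to 9.70 in maxillary molars, with mandibular molars at 8.27 to 9.33. *Chrdl1*, a chordin-like antagonist gene, rose by 1.84, and maxillary molars were above mandibular molars 5 to 8 by 0.90 (adjusted p = 0.001). *Smoc2*, which encodes a matricellular protein, rose by 1.201, with mandibular molars at 9.95 to 10.43 and maxillary molars at 9.64 to 10.24. *Bambi*, which encodes a pseudoreceptor, fell by 0.93, with mandibular molars at 8.90 to 9.15 near the maxillary 8.77 to 8.99.

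Of 16 genes of FGF ligands and receptors 7 were higher in maxillary molars and 2 in incisors, and 3 and 2 after number adjustment. *Fgf20*, a ligand of the enamel knot, had 6.90, 6.81, 7.14 and 7.19 in incisors and 8.05, 7.83, 7.94 and 7.68 in maxillary molars (log2 fold change 0.86, SE 0.11, adjusted p = 0.00146), with 7.59 to 8.46 in mandibular molars. Its number-adjusted value was 1.097. *Fgf4*, of the same centre, rose by 0.75, with a wide range of 7.21 to 8.71 in mandibular molars and a number-adjusted value of 0.54 that did not pass (adjusted p = 0.55). *Fgf13*, which encodes an FGF homologue that is not secreted, rose by 0.73 and did not pass after adjustment (0.43, adjusted p = 0.40). *Fgfr4*, a receptor gene, fell by 1.06 and had a number-adjusted value of -0.62 (adjusted p = 0.065). Of 10 ERK feedback genes, which FGF signals switch on, 4 were higher in maxillary molars. *Dusp6*, a phosphatase gene, rose by 1.29 (SE 0.10, adjusted p = 0.000184) and passed after adjustment at 0.79 (adjusted p = 0.047). The ETS factor genes *Etv4* (0.67), *Etv1* (0.55) and *Etv5* (0.31) had number-adjusted values of 0.22, 0.07 and -0.18, which did not pass. *Etv5* also failed in 4 of the 8 fits with 1 sample left out.

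The 16 genes of the enamel knot list had 9 higher in maxillary molars and none higher in incisors, with a median of 0.35. Without lower incisor 2 the count of 9 was 6. After number adjustment *Fgf20* alone of the 16 passed and the median was -0.15. *Shh*, its best known signal, had 9.19, 8.80, 9.23 and 9.48 in incisors and 9.61, 9.60, 9.80 and 9.63 in maxillary molars. The groups did not overlap, and the log2 fold change was 0.49 (SE 0.13, adjusted p = 0.0272). But *Shh* ran from 7.77 to 9.99 in mandibular molars, with means of 8.83 in samples 1 to 4 and 9.82 in samples 5 to 8, and its number-adjusted value was -0.51 (adjusted p = 0.67). *Fgf3* (0.60, adjusted p = 0.0122) and *Sp6* (0.38, adjusted p = 0.0447) had number-adjusted values of -0.14 and -0.33. The mean signal of the enamel knot list in a sample was 8.20 to 8.57 in incisors, 7.98 to 8.72 in mandibular molars 1 to 4, 8.73 to 8.91 in mandibular molars 5 to 8 and 8.65 to 8.79 in maxillary molars. Of 9 dental epithelium markers 4 were higher in maxillary molars, *Shh*, *Epcam* (0.40), *Sp6* and *Cdh1* (0.30, adjusted p = 0.189 without lower incisor 1), and none passed after adjustment. Without lower incisor 1 the count was 2. *Cdh1* failed in 7 and *Sp6* in 3 of the 8 fits with 1 sample left out. Of 12 Hedgehog genes 3 were higher in each group, and 0 in maxillary molars and 2 in incisors after adjustment. For these and the Notch genes, the shares over all named genes were 16.4% higher in maxillary molars and 12.3% in incisors before adjustment. *Gas1*, a co-receptor gene, fell by 0.68 and by 0.41 after adjustment (adjusted p = 0.014). *Ptch1*, the receptor and target gene, was higher in maxillary molars by 0.44 and had a number-adjusted value of -0.14. *Cdon*, another co-receptor gene, fell by 0.85 (adjusted p = 0.0332), with lower incisor 4 at 6.45 against 7.43 to 7.61 in the others. Of 18 Notch genes 4 were higher in incisors, *Hey2* (-0.86) and *Dll1* (-0.61) with adjusted p of 0.033 and 0.010 after adjustment, and *Hes1* was higher in maxillary molars (0.40) before adjustment only.

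**Figure D3:**
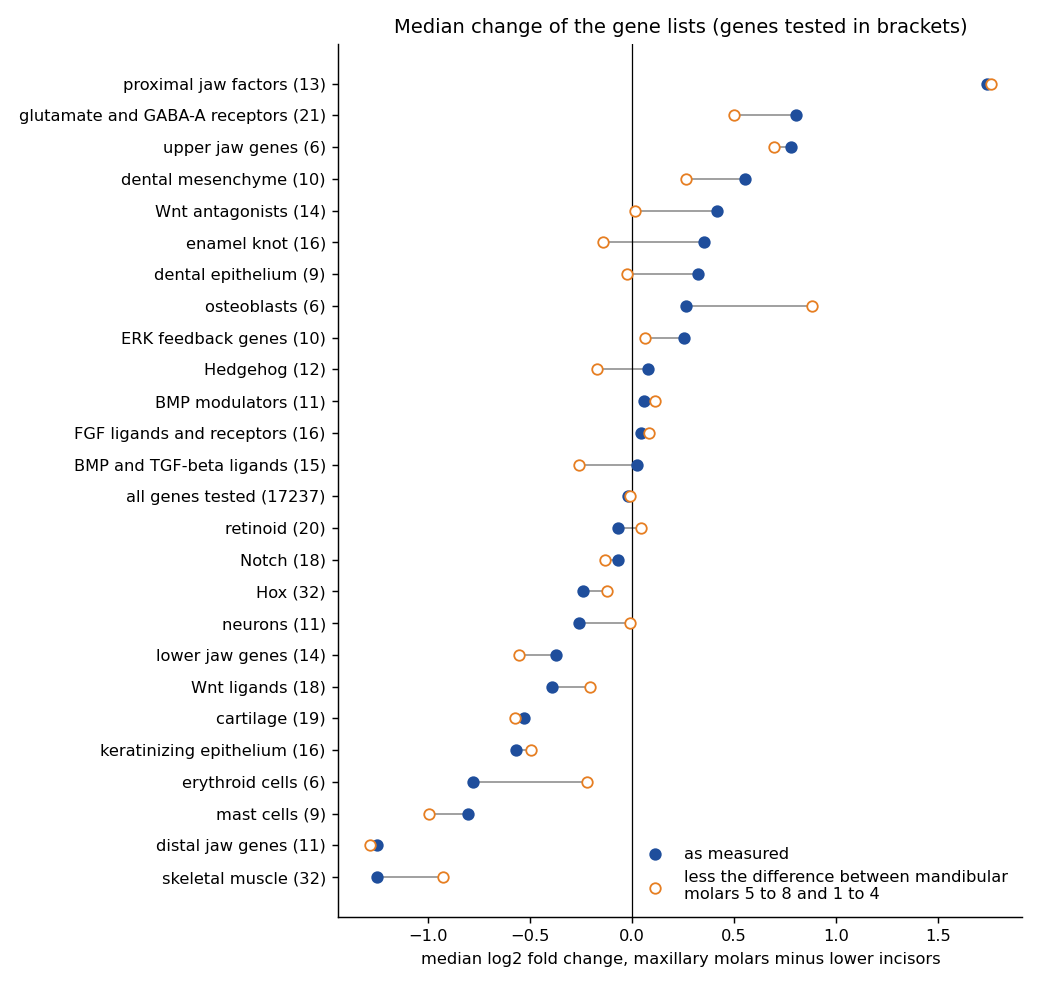
Median log2 fold change of maxillary molars minus lower incisors over the tested genes of each list, as measured (filled) and after number adjustment (open), with the number of genes in brackets. The proximal (1.74 and 1.76) and distal jaw lists keep their medians, and the enamel knot list goes from 0.35 to -0.15.

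Among the single genes parted by number, *Mir205*, the gene of a microRNA of epithelia, had the largest change. Its probe set had 5.94, 5.36, 6.42 and 5.25 in lower incisors and 7.52, 7.90, 7.64 and 8.10 in maxillary molars, a log2 fold change of 2.05 (SE 0.25, adjusted p = 0.00119). Mandibular molars 1 to 4 averaged 5.80 and mandibular molars 5 to 8 averaged 7.73, with the quartets 1.94 apart, and the number-adjusted value was 0.11 (adjusted p = 0.95). *Mir568* followed the same order, with a log2 fold change of 1.49 and 0.33 after adjustment. Their mature sequences in RefSeq (GRCm38.p6) are shown here with the seed, bases 2 to 8, in capitals, since these were the microRNA genes among those named, and no seed is shared among them. Both mature forms of miR-205 are given.
mmu-miR-205-5p: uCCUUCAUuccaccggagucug
mmu-miR-205-3p: gAUUUCAGuggagugaagcuca
mmu-miR-568: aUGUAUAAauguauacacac
Which form of the RNA the probe sets detect is not given in the sources used here. *Rnu3a*, the gene of the U3 small nucleolar RNA, fell by 1.53 and had 8.94, 9.34, 9.43 and 7.51 in incisors, so that lower incisor 4 was nearest to the 7.12 to 7.35 of the maxillary molars. *Dlx1as*, the antisense transcript at *Dlx1*, rose by 1.80 with mandibular means of 8.36 and 9.58 in samples 1 to 4 and 5 to 8, whereas *Dlx1* itself had 9.95 and 9.97. *Uprt* (1.61), *Gcnt4* (1.49), *Sike1* (1.37) and *Spock1* (1.38) were parted in the same way, with number-adjusted values of 0.43, 0.36, 0.28 and 0.56.

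Of 20 retinoid genes tested 8 were higher in maxillary molars and 5 in incisors, and 6 and 2 after number adjustment. *Cyp1b1*, which encodes a cytochrome P450 able to oxidize retinol, had 6.41, 6.53, 5.73 and 6.01 in incisors and 9.55, 9.01, 9.03 and 8.97 in maxillary molars (log2 fold change 2.97, SE 0.20, adjusted p = 7.72e-05), with 7.86 to 9.03 in mandibular molars and a number-adjusted value of 2.20. *Aldh1a2*, the gene of a main enzyme of retinoic acid synthesis, had 8.04, 8.29, 7.58 and 8.41 in incisors and 10.55, 9.92, 9.87 and 9.69 in maxillary molars (log2 fold change 1.93, SE 0.22, adjusted p = 0.000901). All mandibular molars, at 8.70 to 9.53, lay between the groups, and the number-adjusted value was 1.81. *Crabp1*, which encodes a cytoplasmic retinoic acid binding protein, fell by 1.19, from 12.26 to 12.49 in incisors to 11.04 to 11.31 in maxillary molars. *Rxrg*, a retinoid receptor gene also active in muscle, fell by 1.77, with mandibular molars at 6.23 to 7.52. *Cyp26c1*, the gene of an enzyme that breaks down retinoic acid, was chosen after its values were seen. It had 9.11, 9.13, 8.97 and 9.49 in incisors and 9.66, 9.38, 9.75 and 9.73 in maxillary molars, and only 7.06 to 7.73 in mandibular molars. Maxillary molars were above mandibular molars 5 to 8 by 2.05 (adjusted p = 0.000164), and mandibular molars 1 to 4 were below incisors (log2 fold change -1.89, adjusted p = 0.000485). Its difference between maxillary molars and incisors, 0.45 (adjusted p = 0.0294), was smaller, and the groups overlapped.

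Genes of ionotropic glutamate and GABA-A receptor subunits were higher in maxillary molars for 12 of 21 and in incisors for 1, with a median of 0.80, and 9 and 0 passed after number adjustment. *Gria1*, of an AMPA receptor subunit, had 6.64, 6.92, 6.34 and 6.96 in incisors and 9.80, 9.34, 9.40 and 9.18 in maxillary molars (log2 fold change 2.71, SE 0.17, adjusted p = 5.73e-05), with mandibular molars between them at 8.03 to 8.73. *Gria2* rose by 1.80, *Gabrb2* by 1.72 and *Grin2a* by 1.52. The *Gabrb2* probe set used is that of the highest mean, and others called for this gene rose by 2.99 and 1.71. For *Gabrb2* maxillary molars were above mandibular molars 5 to 8 by 1.16 (adjusted p = 0.0028) and mandibular molars 1 to 4 above incisors by 0.61 (adjusted p = 0.029). *Grin2a* did not pass after adjustment (1.15, adjusted p = 0.14). The mean of the list was 6.86 to 7.04 in incisors and 7.68 to 7.81 in maxillary molars, while that of the neuron markers was 7.08 to 7.21 and 6.53 to 6.65. Of 11 neuron markers 4 were higher in incisors, *Isl1* of the distal jaw list, *Stmn2* (-1.57), *Nefl* (-0.80) and *Nefm* (-0.77), and the other 7 did not pass. After number adjustment 2 passed, *Isl1* and *Stmn2* (-1.47, adjusted p = 0.082), the median of the list was -0.01, and *Nefm* had a value of 0.18. *Nefl* did not pass without maxillary molar 3 (adjusted p = 0.111), and the mandibular molars were highest for it, at 7.86 to 9.30 against 6.86 to 8.14 in incisors. The part of nerve in these results was not tested.

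Of 29 genes of mesenchymal matrix and adhesion 13 were higher in maxillary molars and 5 in incisors, and 6 and 4 after adjustment. *Itgbl1*, which encodes an integrin-like protein, rose by 2.36 (SE 0.10, adjusted p = 6.19e-06), from 6.02 to 6.38 in incisors to 8.42 to 8.67. *Has2*, the gene of a hyaluronan synthase, rose by 1.66 (SE 0.13, adjusted p = 0.000133), with 8.84, 8.59, 8.39 and 9.01 in incisors, 10.31, 10.33, 10.37 and 10.46 in maxillary molars and 10.16 to 10.50 in mandibular molars. Of 21 axon guidance genes 7 were higher in maxillary molars and 4 in incisors, and 4 each after adjustment. *Unc5c*, a netrin receptor gene, fell by 1.38 with mandibular molars at the maxillary level, at 8.51 to 8.92. *Sema3c* fell by 1.09, and *Sema3a* and *Epha5* rose by 0.75 and 0.77. Of 32 *Hox* genes 9 were higher in incisors and none in maxillary molars, all with low signals such as those of *Hoxd8*, 5.97 to 6.31 in incisors and 5.31 to 5.52 in maxillary molars. This count was 5 without maxillary molar 2 and 1 after number adjustment. The log2 fold changes of *Hoxc4* (-0.43), *Hoxa4* (-0.40) and *Hoxd10* (-0.38) did not pass after adjustment, and *Hoxc4* lay near or under 5 in all 8 samples.

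Markers of some other cell types also differed between the teeth, and the source of these transcripts was not tested. In RNA of whole germs, fewer cells of a type and less RNA per cell cannot be told apart. All 32 markers of skeletal muscle were higher in lower incisors, 20 of them at fold 2, with a median of -1.25. Some of them, such as *Klhl31* and *Tnnt1*, had been reported by the study as lower in maxillary than in mandibular molars. *Myh3*, the embryonic myosin heavy chain gene, had 9.64, 9.77, 9.67 and 9.48 in incisors, 6.36, 6.88, 6.50 and 6.98 in maxillary molars and 8.17 to 10.05 in mandibular molars (log2 fold change -2.96, SE 0.14, adjusted p = 1.21e-05). *Actc1*, the cardiac alpha actin gene (-2.78), *Ttn*, the titin gene (-2.46), and *Neb*, the nebulin gene (-2.19), went with it. The mean of the 32 markers was 7.88 to 8.00 in incisors, 7.34 to 8.14 in mandibular molars 1 to 4, 6.98 to 7.61 in mandibular molars 5 to 8 and 6.41 to 6.72 in maxillary molars, so that both lower jaw teeth were above the upper molars. After number adjustment 16 of the 32 passed, with a median of -0.93. Their part in the changes of *Pax3*, *Rxrg* and *Fgfr4*, which muscle and its progenitors also express, was not tested.

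Of 19 cartilage markers 14 were higher in incisors and 2 in maxillary molars, and 5 and 2 after number adjustment. The incisors were unequal. *Acan*, the aggrecan gene, had 9.54 and 9.61 in lower incisors 1 and 4, 6.74 and 7.79 in lower incisors 2 and 3, 5.84 to 5.96 in maxillary molars and 5.90 to 6.32 in mandibular molars (log2 fold change -2.52, SE 0.58, adjusted p = 0.0157, and -2.52 after number adjustment, adjusted p = 0.06). *Cnmd* (-1.61) and *Hapln1* (-1.23) had the same order of incisors. Without lower incisors 1 and 4, a setting chosen after the values were seen, 8 cartilage markers were higher in incisors, and without maxillary molar 1 there were 9. *Cnmd* did not pass in 6 of the 8 fits with 1 sample left out (adjusted p of up to 0.163, without lower incisor 1). Nor did it pass after number adjustment (-1.18, adjusted p = 0.53). *Ucma*, another cartilage gene, was higher in maxillary molars (1.66), at 9.70, 8.95, 8.45 and 8.01 against 6.46 to 7.65. Of 6 osteoblast markers 3 were higher in maxillary molars, *Phex* (1.30), *Ifitm5* (0.45) and *Sp7* (0.45), and 2 after number adjustment, *Phex* (1.45) and *Ifitm5* (1.13, adjusted p = 0.052).

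Of 16 markers of keratinizing epithelium 8 were higher in incisors and 6 after number adjustment, with mandibular molars at the maxillary level for *Sprr3* (log2 fold change -1.84), *Krt1* (-1.18), *Krt10* (-1.08) and *Sprr1a* (-0.95). Of 9 mast cell markers 6 were higher in incisors and 1 in maxillary molars, and 5 and 1 after number adjustment. *Mcpt2*, a mast cell protease gene, had 7.03, 6.00, 6.48 and 7.80 in incisors and 4.08 to 4.20 in maxillary molars, and *Mcpt4* (-1.39), *Cpa3* (-1.55) and *Hdc* (-1.03) were lower too. The embryonic globin genes *Hbb-y* (-0.91), *Hba-x* (-0.84) and *Hbb-bh1* (-1.01) and *Alas2* (-0.72), an enzyme gene of haem synthesis, were the 4 of 6 erythroid markers that were higher in incisors. None of them passed after number adjustment. Of 11 macrophage markers 2 were higher in maxillary molars, and of 11 endothelial markers 2 in each group. These counts are near the shares over all named genes, 16.4% higher in maxillary molars and 12.3% in incisors. Of 6 Schwann cell markers 3 were higher in incisors, with a median of -0.28, and the mean of the list was 7.51 to 7.66 in incisors and 7.18 to 7.34 in maxillary molars, without overlap. No member of these lists passed after adjustment. Without maxillary molar 1 the macrophage count was 1, and without lower incisor 3 no endothelial marker was higher in maxillary molars. Of 15 cell cycle genes 6 were higher in maxillary molars and 1 in incisors, and *Ccnd2*, a cyclin gene, passed after adjustment (0.72, and 0.40 adjusted, adjusted p = 0.031). Markers of the germs were present in both teeth, with *Krt14*, a basal keratin gene, at means of 11.54 in incisors and 11.34 in maxillary molars, and *Msx1*, of the dental mesenchyme, at 10.29 and 10.80. Of 10 dental mesenchyme markers 6 were higher in maxillary molars and 1 in incisors, and 3 and 0 after adjustment.

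**Figure D4:**
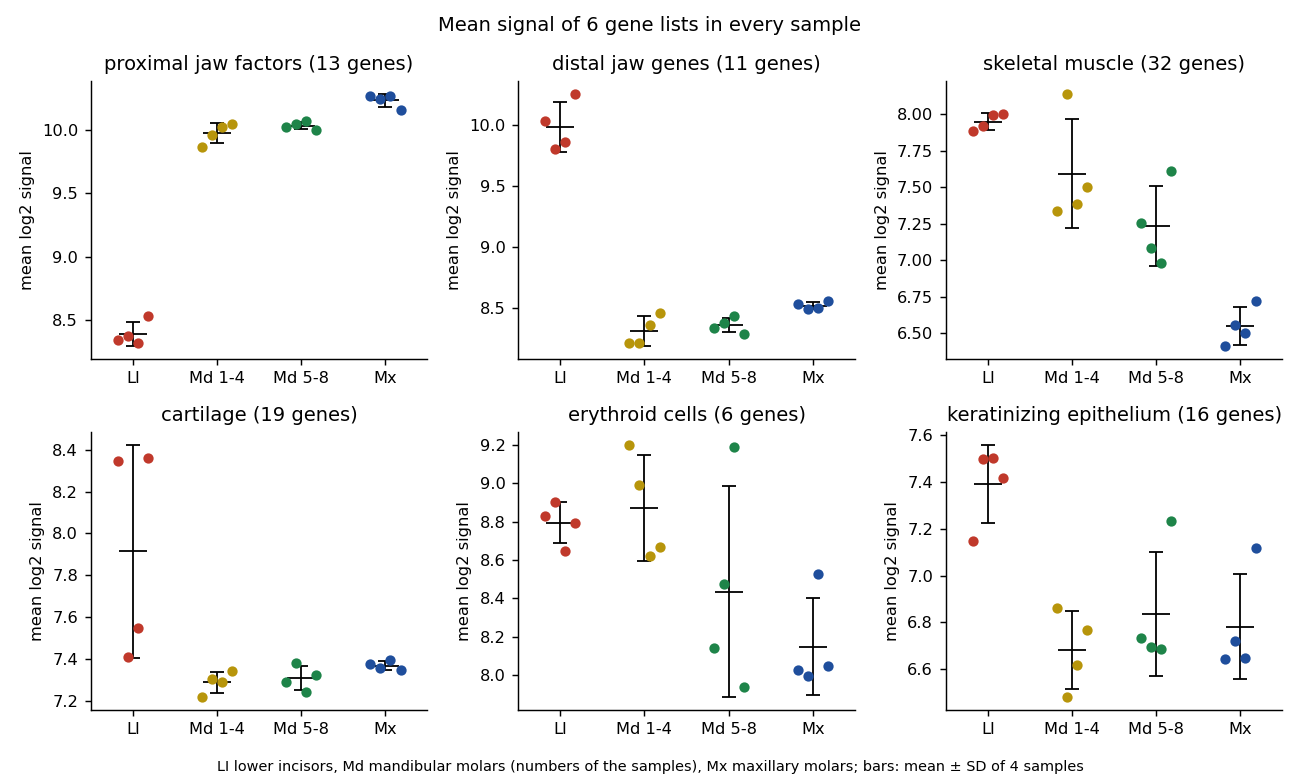
Mean log2 signal of 6 gene lists in each sample, by group and mandibular sample number along the x axis, with black bars for the mean ± SD of 4 samples. Skeletal muscle falls from lower incisors (7.88 to 8.00) to maxillary molars (6.41 to 6.72) with mandibular molars between, except for sample 2 at 8.14. The cartilage level is high in lower incisors 1 and 4.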

How the data were processed

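RNA of 16 samples was hybridized to 1 array each. The authors deposited log2 signals made by RMA in Affymetrix Expression Console 1.1 (background correction, quantile normalization over the arrays and median polish), which were used as they are. Sample medians were 6.84 to 6.99. Arrays give no read depth, and their number limits the precision. The build behind the probe sets is not given in the sources used here. Of 35556 probe sets 21789 carried 1 symbol, 1621 several and 12146 none, and symbols were updated through gene IDs to GRCm38.p6. A gene with more than 1 probe set was represented by that of the highest average across the 16 samples.

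Groups came from the sample titles. Probe sets above 5 in at least 1 of the 8 samples were fitted in limma 3.58.1 (lmFit and eBayes, R 4.3.3) without a block. The study discarded 1 incisor sample for a technical problem in hybridization (high background). It did not name the sample, so all 4 were used here. Number adjustment was a fit of all 16 samples with mandibular molars 1 to 4 and 5 to 8 as groups of their own. Named genes were the 14 largest changes each way at fold 2 without overlap, all members of the 4 jaw lists, up to 4 members of each other list, and the 8 largest changes parted by number or at the incisor level. Members and lists were chosen with earlier results of these data known. The fit was tested on simulated data of 29075 probe sets of this comparison. It recovered 29, 46, 48 and 48 of 50 changed at log2 sizes of 0.5, 1, 1.5 and 2. Recovery was counted by adjusted p and sign without a fold threshold, so it is not the sensitivity of the calls at fold 2. Of 28875 unchanged probe sets 27 were called, 1 of them at fold 2. The simulated noise was independent between samples, and few probe sets were changed. It held no difference such as that between the mandibular sample numbers. These counts therefore do not give the share of false calls in the real data. The alternatives were other filters, a floor, other normalizations, weights, variance models, the methods' t-test, a replicate block, other fits, 1 probe set per gene and each sample left out.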

Additional observations from a re-analysis of the deposited data

Results flagged for a closer look

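In each group the distance of the highest or lowest sample to the nearest other one was set against the range of the group (Dixon's ratio, at its 95% critical value). Of 570 groups of samples, for 159 genes and 31 list means, 32 (5.61%) were past the critical value, where chance gives about 1 in 20. Among genes in the lower incisors these were *Barx1* in sample 2 (0.903), *Prrx1* in sample 3 (0.977), *Gbx2* in sample 1 (0.967), *Dlx6* in sample 3 (0.899), *Tbx4* in sample 2 (0.848), *Cdon* in sample 4 (0.847), *Hes1* in sample 4 (0.956), *Sprr1a* in sample 1 (0.911), *Alas2* in sample 4 (0.971), *S100b* in sample 3 (0.909) and *Slc10a4* in sample 2 (0.835). Among genes in the maxillary molars these were *Cyp1b1* in sample 1 (0.897), *Gdf10* in sample 3 (0.89), *Hdc* in sample 4 (0.842), *C1qb* in sample 4 (0.875) and *Stmn2* in sample 3 (0.847). Among genes in the mandibular molars these were *Emx2* in sample 7 (0.703), *E330013P04Rik* in sample 7 (0.739), *Ttn* in sample 2 (0.528), *Isl1* in sample 7 (0.599), *Gsc* in sample 2 (0.631), *Nkx2-3* in sample 2 (0.695), *Hes1* in sample 2 (0.558), *Gabrb2* in sample 6 (0.533) and *Sprr3* in sample 8 (0.553). Among the list means they were the lower jaw list in mandibular molar 4 (0.537), the upper jaw list in maxillary molar 4 (0.939), the Hedgehog list in lower incisor 2 (0.956), the dental epithelium list in mandibular molar 2 (0.605), the keratinizing epithelium list in maxillary molar 4 (0.841), the erythroid list in maxillary molar 3 (0.898) and the Schwann cell list in lower incisor 4 (0.917). Mandibular molar 7 stood out for *Emx2*, *E330013P04Rik* and *Isl1*, and mandibular molar 2 for *Ttn*, *Gsc*, *Nkx2-3* and *Hes1*. No explanation was tested for these samples.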

How the results depend on the processing

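At fold 2, 314 probe sets were higher in maxillary molars and 216 in incisors, and at fold 1.2 4201 and 3889. With the mandibular numbers as a batch these counts were 105, 101, 451 and 440. With 1 probe set per gene they were 168, 150, 2932 and 2208, and 42 in place of 137 for mandibular molars 5 to 8 against 1 to 4. Without lower incisors 1 and 4, chosen after seeing the data, they were 462, 350, 5332 and 5819. Leaving out each sample in turn gave 270 to 374, 184 to 319, 3596 to 4832 and 3112 to 5512, and 101 to 322 for the mandibular comparison, with 322 without mandibular molar 4. With place thresholds of 0.33 and 0.67, 9 probe sets higher in incisors lay at the incisor level in place of 5. Of 159 genes 88 kept their direction and side of the threshold with the numbers as a batch, and 2 passed anew. A further 57 kept their direction but no longer passed. The other 12 reversed, which means that they changed sign, and they no longer passed either. They were *Prrx2* (-0.029), *Bmp4* (-0.26), *Dlx3* (-0.10), *Barx2* (0.27), *Pitx1* (0.011), *Etv5* (-0.18), *Shh* (-0.51), *Ptch1* (-0.14), *Fgf3* (-0.14), *Sp6* (-0.33), *Cdh1* (-0.020) and *Nefm* (0.18). The cause was not tested, and no gene reversed under any other setting run. The replicate block gave 312 and 217 at fold 2, and same-numbered samples correlated at 0.058, -0.069, 0.036 and 0.243, so the numbers were not taken as pairs. With 4 pools a group, small differences can be missed.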
